A study of Mus musculus with 21 samples.

Results

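The pyruvate dehydrogenase complex and its regulators were followed here through 10 genes of the heart, 4 of them subunits of the complex (Pdha1, Pdhb, Dlat and Pdhx), 3 kinases (Pdk1, Pdk2 and Pdk3), 1 phosphatase (Pdp1) and 2 subunits of the mitochondrial pyruvate carrier (Mpc1 and Mpc2). They were listed by name and function, with earlier results of these data known, and all 10 were found among the 46517 Ensembl genes of the counts table. The study compared left ventricles of control (Notch3+/+) mice with those of Notch3-/- mice by bulk RNA-sequencing, which reads the RNA of all cells of the tissue together. Mice of both groups had the C57BL/6J background and were 10 to 14 months old, and the Notch3-/- mice carry a lacZ insertion in the Notch3 locus, in all tissues and not only in the heart. There were 4 control and 3 Notch3-/- mice with 3 technical libraries each, which gave 21 libraries. Library totals ranged from 464390 to 2134368 counts in control mice and from 979804 to 2427783 in Notch3-/- mice. Libraries of the same heart were added up, which gave 3046326 to 4638786 counts for control mice and 3828763 to 5167869 for Notch3-/- mice, and each mouse was 1 replicate. Positions are those of GENCODE vM21 on GRCm38, the build mm10 that the labels name, and levels are given in CPM, the counts of a gene in each 1000000 counts after TMM normalization, with mice named by group and number.

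Pyruvate, made from glucose or lactate, enters mitochondria through the carrier formed by MPC1 and MPC2, and the pyruvate dehydrogenase complex then turns it into acetyl-CoA, an irreversible step that commits carbohydrate carbon to oxidation. The kinases switch the complex off by phosphorylating the alpha subunit of its first enzyme, and the phosphatases switch it on again. In the adult heart, which burns mostly fatty acids, this switch sets how much glucose is oxidized.

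The targeted gene, Notch3, had 57.3, 42.1, 57.6 and 61.8 CPM in control mice 1 to 4, against 6.01, 7.57 and 4.73 CPM in Notch3-/- mice 1 to 3. Every Notch3-/- mouse lay far below every control mouse, so the measured level fits the label of each mouse. Notch3 was also the 1 gene called as changed between the genotypes, of 14324 genes tested, which is 0.00698% (a call needed an FDR under 0.05 together with a fold change of 1.5 or more in edgeR's quasi-likelihood test).

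None of the 10 members was called: 0 of 10 passed the thresholds, and the smallest FDR among them was 0.481 in edgeR's test with Benjamini-Hochberg adjustment. All 10 passed the filter on low counts. With an unadjusted p lower than 0.05, 0 of 10 were lower, against 3.05% of all genes tested, and 0 of 10 were higher, against 7.34%. DESeq2 also called 0 members, against 3.53% of all genes it tested, with 1 of 10 at an unadjusted p lower than 0.05, against 11.3%. In limma-voom on the 21 libraries 0 of 9 members tested were called, against 0.581% of all genes, with 2 at that level, against 13.3%. The fold change of 8 members was below 0 on the log2 scale, where 50.4% of all genes tested were, and the median over the 10 was -0.13, against -0.0028 over all genes tested. For no member did the groups separate, 0 of 10 with every Notch3-/- mouse below every control mouse (3.96% of all genes) and 0 of 10 with every Notch3-/- mouse above (4.57% of all genes).

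**Figure D1:**
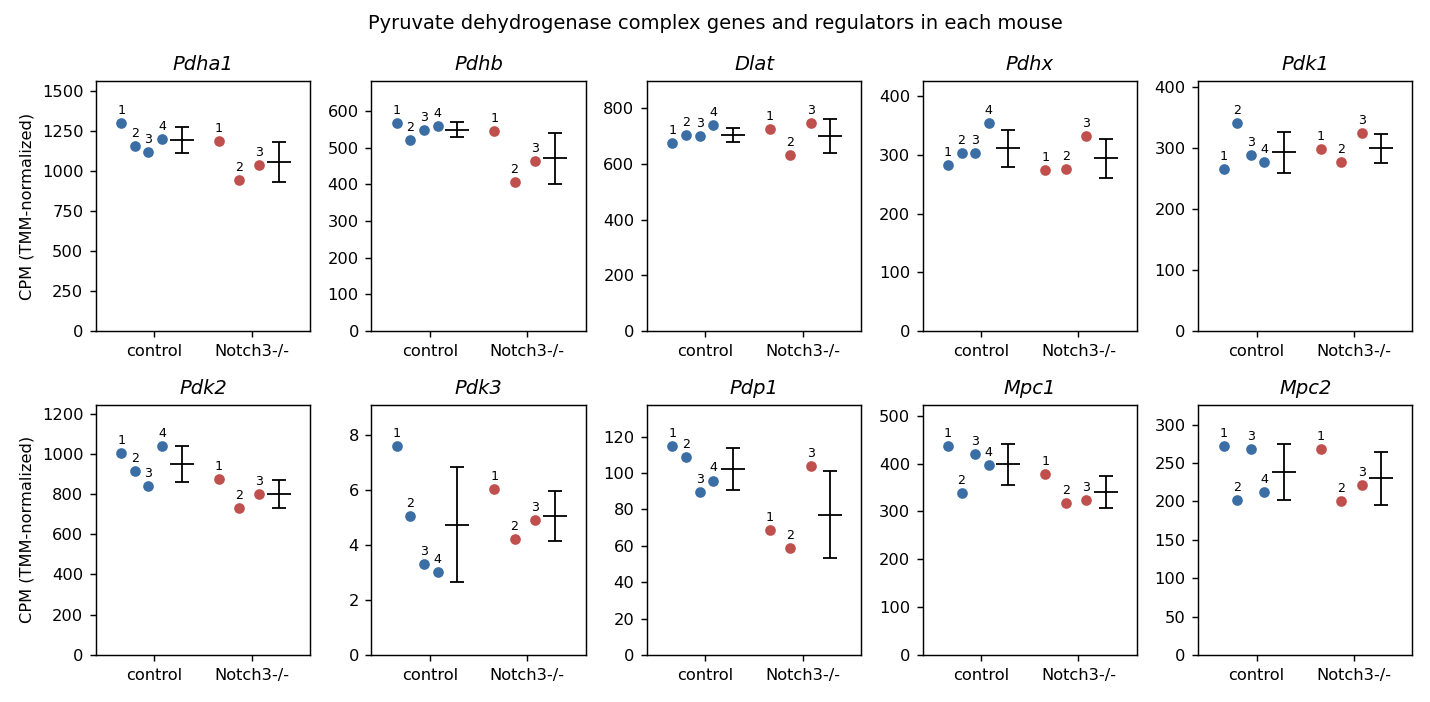
Level of each of the 10 genes in each mouse, in TMM-normalized CPM (vertical axis, from 0), for control (blue, mice 1 to 4) and Notch3-/- mice (red, mice 1 to 3), with black bars for the group mean and SD. The groups overlapped for all 10 genes, and Notch3-/- mouse 2 was the lowest of the 7 mice for 7 of them.

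Pdha1 (ENSMUSG00000031299, chromosome X, 160122209 to 160138413, minus strand) encodes the alpha subunit of the first enzyme of the complex, pyruvate dehydrogenase itself, and carries the serines that the kinases phosphorylate. Its level was 1303, 1160, 1117 and 1200.0 CPM in control mice 1 to 4, against 1188, 943 and 1041 CPM in Notch3-/- mice 1 to 3. Notch3-/- mice 2 and 3 lay below all control mice, while Notch3-/- mouse 1 lay above control mice 2 and 3. The mean was 1195 ± 79.4 CPM (SD, n = 4) in control and 1058 ± 123 CPM (SD, n = 3) in Notch3-/- mice, and the log2 fold change was -0.18 (SE 0.11, FDR 0.597 in edgeR's test). Its 95% interval, from -0.41 to 0.06, takes in no change and leaves out a fold change of 1.5 in either direction.

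Pdhb (ENSMUSG00000021748, chromosome 14, 8165996 to 8173025, minus strand) encodes the beta subunit, the partner of PDHA1 in the same enzyme. It had 568, 521, 548 and 559 CPM in control mice 1 to 4, a narrow range, and 545, 407 and 462 CPM in Notch3-/- mice 1 to 3. The Notch3-/- mice were as in Pdha1: mouse 1 fell among the control mice and mice 2 and 3 below them. Its log2 fold change was -0.22 (SE 0.12, FDR 0.539 in edgeR's test). The ratio of Pdha1 to Pdhb, each per kilobase of exon, was 2.11 to 2.37 in control mice and 2.25 to 2.40 in Notch3-/- mice, so the 2 subunit genes kept nearly the same proportion in all 7 mice. With principal transcript lengths the ratio was 1.08 to 1.22 in control mice and 1.16 to 1.23 in Notch3-/- mice, so its size rests on the length chosen. Across the mice, the log2 CPM of Pdha1 and Pdhb had a Pearson's r of 0.94 (n = 7, a description without a test, since the mice share the depth and tissue differences given below).

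Dlat (ENSMUSG00000000168, chromosome 9, 50634633 to 50659780, minus strand) encodes the second enzyme, dihydrolipoyl transacetylase, which forms the core of the complex and hands the acetyl group to coenzyme A. Its level was the most even of the members, with 676, 704, 699 and 738 CPM in control mice 1 to 4, against 724, 631 and 748 CPM in Notch3-/- mice 1 to 3. The lowest and the highest of the 7 mice were both Notch3-/- mice, 2 and 3. The log2 fold change was -0.01 (SE 0.10, 95% interval -0.22 to 0.21, FDR 0.989 in edgeR's test), and its sign turned in 9 of 25 alternative settings.

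Pdhx (ENSMUSG00000010914, chromosome 2, 103021075 to 103073513, minus strand) encodes the E3-binding protein, which tethers dihydrolipoamide dehydrogenase to the core. It had 282, 304, 303 and 355 CPM in control mice 1 to 4, against 275, 276 and 333 CPM in Notch3-/- mice 1 to 3. Notch3-/- mice 1 and 2 lay just below the lowest control mouse, and mouse 3 lay above 3 of the 4 control mice. For Pdhx the log2 fold change was -0.08 (SE 0.12, FDR 0.870 in edgeR's test). Per kilobase of exon, Dlat was 1.67 to 1.93 times as abundant as Pdhx in control mice and 1.80 to 2.12 times in Notch3-/- mice (1.29 to 1.49 and 1.39 to 1.64 times with principal transcript lengths).

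Pdk2 (ENSMUSG00000038967, chromosome 11, 95026258 to 95041354, minus strand) encodes the kinase isoform found in most tissues and was the most abundant of the kinase members. It had 1003, 915, 839 and 1037 CPM in control mice 1 to 4, against 873, 729 and 798 CPM in Notch3-/- mice 1 to 3. Notch3-/- mice 2 and 3 lay below all control mice, and mouse 1 lay above control mouse 3 alone. The mean was 948 ± 89.2 CPM (SD, n = 4) in control and 800.2 ± 71.9 CPM (SD, n = 3) in Notch3-/- mice, and the log2 fold change was -0.25 (SE 0.11, 95% interval -0.49 to 0.00016). Pdk2 had the smallest FDR of the members, 0.481 in edgeR's test. The ratio of Pdk2 to Pdha1 per kilobase, the kinase gene against the gene of its substrate, was 0.886 to 1.02 in control mice and 0.867 to 0.913 in Notch3-/- mice (0.952 to 1.10 and 0.932 to 0.980 with principal transcript lengths). The 2 genes thus moved together over the mice, with a Pearson's r of 0.91 on log2 CPM (n = 7, no test).

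Pdk1 (ENSMUSG00000006494, chromosome 2, 71873224 to 71903858, plus strand), a kinase gene known as a target of hypoxia-inducible factor, did not follow Pdk2. Its level was 266, 341, 289 and 276 CPM in control mice 1 to 4, against 298, 277 and 324 CPM in Notch3-/- mice 1 to 3, so all 3 Notch3-/- mice lay within the control range. The log2 fold change was 0.03 (SE 0.12, 95% interval -0.24 to 0.30, FDR 0.953 in edgeR's test). Pearson's r between the log2 CPM of Pdk1 and Pdk2 was -0.22 (n = 7, no test). The technical libraries of a mouse differed widely for this gene, from 224 to 427 CPM within Notch3-/- mouse 3.

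Pdk3 (ENSMUSG00000035232, chromosome X, 93764607 to 93832201, minus strand), the third kinase gene, was close to the limit of detection. Only 23, 24, 14 and 9 counts were found in control mice 1 to 4, against 22, 20 and 26 counts in Notch3-/- mice 1 to 3, which is 3.01 to 7.57 CPM in control and 4.21 to 6.01 CPM in Notch3-/- mice. The Notch3-/- mice again lay within the control range. The log2 fold change of 0.09 had an SE of 0.39 and a 95% interval from -0.78 to 0.96, so a fold change of 1.5 in either direction lay within it.

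Pdk4, a further kinase gene that is not among the 10 and is known to rise with fasting, had 635, 673, 442 and 379 CPM in control mice 1 to 4, against 167, 240.0 and 682 CPM in Notch3-/- mice 1 to 3 (log2 fold change -0.55, SE 0.42, FDR 0.691 in edgeR's test). Set per kilobase against all 4 kinase genes, Pdk4 made up 33.8%, 36.4%, 29.3% and 22.8% in control mice 1 to 4, against 13.1%, 20.3% and 39.6% in Notch3-/- mice 1 to 3. The share of Pdk2 was 59.3%, 54.9%, 61.7% and 69.4% in control mice, against 75.8%, 68.6% and 51.5% in Notch3-/- mice. With principal transcript lengths Pdk2 made up 57.7% to 78.2% and Pdk4 9.66% to 31.8% over the 7 mice, with the same mice at the ends. The makeup of the kinase transcripts therefore differed most between Notch3-/- mice themselves, mouse 1 having the highest share of Pdk2 and mouse 3 the lowest of all 7 mice. Pdk1 made up 6.38% to 8.64% in control and 8.49% to 10.6% in Notch3-/- mice, and Pdk3 at most 0.644% in any mouse. The sum of the 4 kinase genes was 491 ± 49.5 CPM per kilobase (SD, n = 4) in control mice. In Notch3-/- mice it was 397 ± 82.0 CPM per kilobase (SD, n = 3). Notch3-/- mice 1 and 2, at 364 and 336, lay below all control mice. Notch3-/- mouse 3, at 490.2, lay within the control range.

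**Figure D2:**
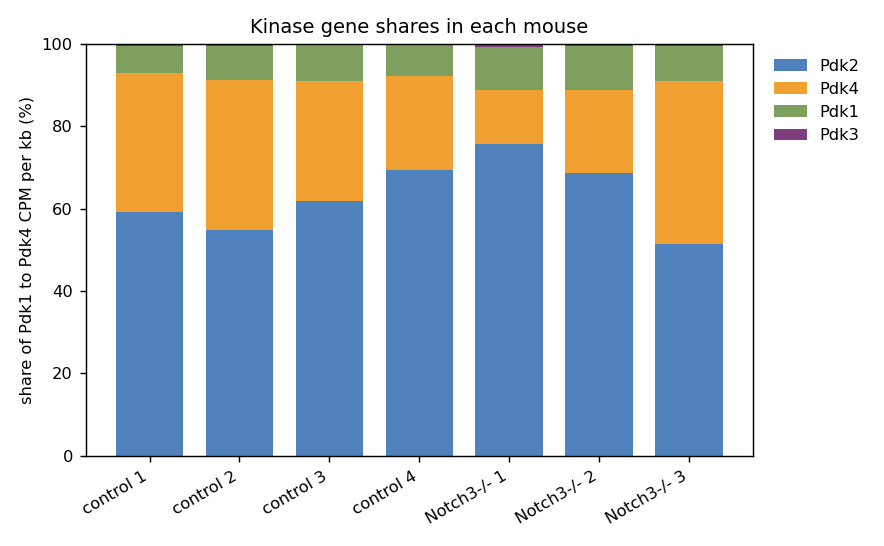
Share of each kinase gene in the summed level of Pdk1 to Pdk4, in percent of CPM per kilobase of exon (vertical axis), in each of the 7 mice. Pdk2 was the largest share in every mouse, from 51.5% in Notch3-/- mouse 3 to 75.8% in Notch3-/- mouse 1.

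Pdp1 (ENSMUSG00000049225, chromosome 4, 11958184 to 11966452, minus strand) encodes the catalytic subunit of a pyruvate dehydrogenase phosphatase, which reverses the kinases' action and is activated by calcium. It had 115, 109, 89.6 and 95.9 CPM in control mice 1 to 4, against 68.6, 58.7 and 104 CPM in Notch3-/- mice 1 to 3. Notch3-/- mice 1 and 2 lay below all control mice, and Notch3-/- mouse 3 lay within the control range. The mean was 102 ± 11.5 CPM (SD, n = 4) in control and 77.1 ± 23.8 CPM (SD, n = 3) in Notch3-/- mice, and the log2 fold change was -0.40 (SE 0.20, 95% interval -0.86 to 0.05, FDR 0.521 in edgeR's test), the farthest from 0 among the members. The split between the Notch3-/- mice was present in the single libraries. The 3 libraries of Notch3-/- mouse 1 had 59.4 to 76.1 CPM and those of Notch3-/- mouse 2 50.6 to 66.8 CPM, against 89.4 to 114 CPM in Notch3-/- mouse 3 and 65.9 to 134 CPM in the 12 control libraries. The lowest of these, at 65.9 CPM, was the shallowest of all libraries (control mouse 4), and without it the control libraries began at 79.9 CPM.

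Without Notch3-/- mouse 3, Pdp1 was called as lower, with a log2 fold change of -0.69 (SE 0.17, FDR 0.0430 in edgeR's test). In all 936 genes were called in that fit (6.24% of those tested), against 1 with all 7 mice. Of the 936 genes 903 were higher and 33, Pdp1 among them, were lower. The FDR of Pdp1 in the other alternatives ranged from 0.129 to 1.00. With the hepatocyte score of each mouse as a covariate the log2 fold change of Pdp1 was 0.08 (SE 0.26). For Notch3-/- mouse 3 alone against the control mice it was 0.03 (a fit in which the lone mouse is assumed to vary like the controls, and which was chosen after seeing the data). The ratio of Pdk2 to Pdp1 per kilobase, the main kinase gene against the phosphatase gene, was 12.5, 12.0, 13.3 and 15.4 in control mice 1 to 4, against 18.1, 17.7 and 10.9 in Notch3-/- mice 1 to 3. Notch3-/- mice 1 and 2 were thus above all control mice in this ratio, and Notch3-/- mouse 3 was below all of them. With principal transcript lengths the ratios were higher, 15.7 to 20.2 in control mice, against 23.8, 23.2 and 14.4 in Notch3-/- mice 1 to 3, in the same order.

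Mpc1 (ENSMUSG00000023861, chromosome 17, 8282904 to 8297661, plus strand) encodes one of the subunits of the carrier. It had 436, 339, 421 and 398 CPM in control mice 1 to 4, against 379, 318 and 324 CPM in Notch3-/- mice 1 to 3. Notch3-/- mice 2 and 3 lay below all control mice, though only a little below control mouse 2, and Notch3-/- mouse 1 lay within their range. The log2 fold change was -0.23 (SE 0.12, FDR 0.554 in edgeR's test).

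Mpc2 (ENSMUSG00000026568, chromosome 1, 165460637 to 165481214, plus strand), the other carrier subunit gene, had 272, 202, 268 and 212 CPM in control mice 1 to 4, against 268, 201 and 221 CPM in Notch3-/- mice 1 to 3. The mice of both groups fell into a high and a low level that did not follow the genotype, and only Notch3-/- mouse 2 was, by a small margin, below the control range. The log2 fold change was -0.05 (SE 0.15, FDR 0.938 in edgeR's test). Mpc1 was 5.53 to 6.61 times as abundant as Mpc2 per kilobase of all annotated exons in control mice and 4.98 to 5.59 times in Notch3-/- mice, but this scale counts 7344 exon bases for Mpc2, of which its principal transcript has 1025. With principal transcript lengths the ratio was 1.68 to 2.00 in control and 1.51 to 1.69 in Notch3-/- mice.

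**Figure D3:**
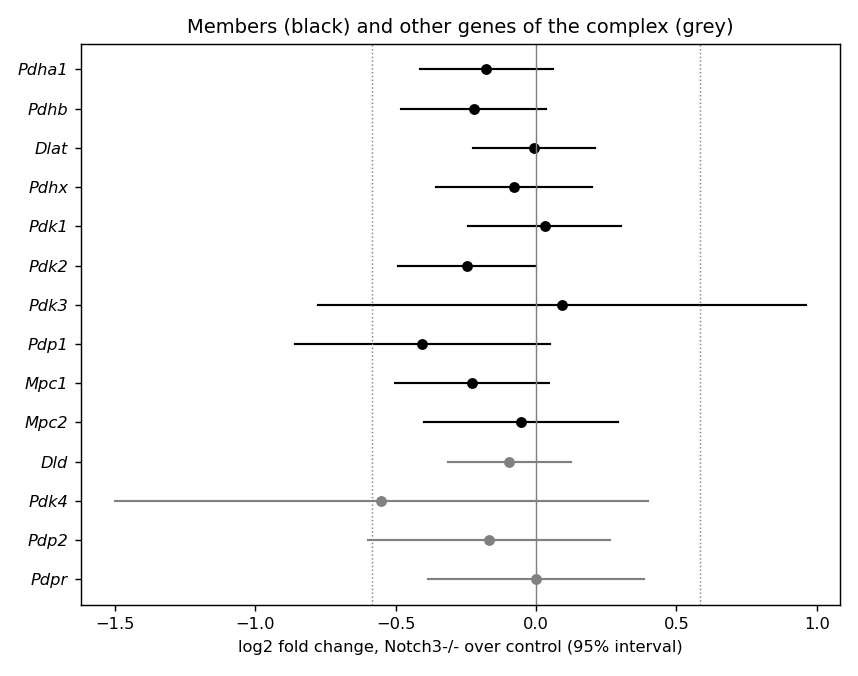
Log2 fold change of Notch3-/- over control mice (horizontal axis) with its 95% interval for the 10 members (black) and 4 other genes of the complex and its regulation (grey), where dotted lines mark a fold change of 1.5. The interval of every gene shown includes 0, the upper bound of Pdk2 being 0.00016, and the estimate of Pdp1, at -0.40, was the lowest of the members.

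Levels were compared between members per kilobase of exon. In control mice Pdha1 (320.1 ± 21.3 CPM per kilobase, SD, n = 4) and Pdk2 (300 ± 28.2) were the highest and overlapped each other. Mpc1 (191 ± 20.5) came next, then Dlat (144 ± 5.27) and Pdhb (142 ± 5.22), which overlapped, and Pdhx (79.2 ± 7.88). Pdk1 (37.7 ± 4.31) and Mpc2 (32.5 ± 4.97) overlapped, and Pdp1 (22.7 ± 2.54) and Pdk3 (1.85 ± 0.820) were the lowest. With the length of the longest principal transcript in place of all annotated exons, Pdk2, Pdha1, Mpc1 and Pdhb were at 422, 420, 416 and 363 CPM per kilobase and each overlapped the next, and Mpc2, at 233, came before Dlat, at 175. The places of Mpc2 and Pdhb in this order thus rest on the transcript length chosen, while Pdhx, Pdk1, Pdp1 and Pdk3 followed each other in the same order on both scales.

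Of the 10 members 2 share exon sequence with a gene on the opposite strand, and the use of strand in counting is not given in the sources used here. Pdha1 shares 603 exon bases with Map3k15, whose counts were 25.3% to 27.0% of those of Pdha1 in every mouse. Mpc1 shares 480 exon bases with 4930506C21Rik, whose counts were 49.6% to 51.2% of those of Mpc1 in every mouse. The proportions were nearly fixed over the 7 mice. From the counts alone, reads in the shared exon bases cannot be assigned to a member or to its antisense partner. The pseudogene Mpc1-ps had 8 counts over all 7 mice, against 10523 for Mpc1.

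The DNA before the start sites of Pdk2, Pdha1 and Pdhb is shown, since every pair of these 3 had a Pearson's r of log2 CPM of 0.85 to 0.94 over the 7 mice (no test). Mpc1, which is not shown, had an r of 0.86 with Pdhb, 0.79 with Pdha1 and 0.68 with Pdk2. RefSeq (GRCm38.p6) gave promoters for 9 of the 10 members, and Pdp1 was not matched. The 250 bases before the start were searched on both strands for 5 short motifs, CCAAT (the CCAAT box), GGGCGG (the GC box), AAGGTCA (bound by estrogen-related receptors), ACGTG (the core of the hypoxia response element, also contained in CACGTG on both strands) and GCGCATGC (part of the NRF1 motif), which were chosen after these sequences had been read. Below, each sequence runs 5′ to 3′ on the strand of its gene, and capitals mark CCAAT or its reverse complement ATTGG. The windows end just before the RefSeq start, and the ends of the Pdhb and Pdk3 windows lie inside the genes as GENCODE draws them. The windows of Mpc1 and Mpc2, searched but not shown, lie wholly inside their genes as drawn there.
Pdk2 promoter, chr11:95041372-95041621, minus strand: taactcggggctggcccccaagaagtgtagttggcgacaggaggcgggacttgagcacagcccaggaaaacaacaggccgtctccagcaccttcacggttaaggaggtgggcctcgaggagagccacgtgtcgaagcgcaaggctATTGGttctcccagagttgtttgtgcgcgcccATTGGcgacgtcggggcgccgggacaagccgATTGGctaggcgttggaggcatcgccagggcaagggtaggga
Pdhb promoter, chr14:8172993-8173242, minus strand: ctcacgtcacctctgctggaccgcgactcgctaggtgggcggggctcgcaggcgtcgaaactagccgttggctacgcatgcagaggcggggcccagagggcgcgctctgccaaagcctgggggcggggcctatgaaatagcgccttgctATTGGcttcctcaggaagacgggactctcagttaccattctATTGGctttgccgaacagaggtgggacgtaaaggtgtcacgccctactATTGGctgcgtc
Pdha1 promoter, chrX:160138431-160138680, minus strand: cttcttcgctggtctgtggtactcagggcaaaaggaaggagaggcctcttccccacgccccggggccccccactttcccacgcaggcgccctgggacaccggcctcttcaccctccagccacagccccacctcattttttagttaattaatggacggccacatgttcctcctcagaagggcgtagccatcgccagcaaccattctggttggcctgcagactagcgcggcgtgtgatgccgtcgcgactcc
The Pdk2 and Pdhb promoters each held 3 matches to CCAAT, all as ATTGG, and the Pdha1 promoter held 0. Of all 32851 RefSeq promoter windows of this length, 33.8% held at least 1 match and 2.79% held 3 or more. Among the 9 members CCAAT was found in 5 (Pdk2, Pdk3, Pdhb, Mpc1 and Mpc2) and GGGCGG in 7, which 32.7% of all windows hold. The 9 windows were 61.6% to 73.6% G or C, and the shares of all windows were not matched for base content. ACGTG was found in 3 (Pdk2, Pdk3 and Pdhb), against 16.6% of all windows, and not in the Pdk1 window. AAGGTCA and GCGCATGC were found in 0 of 9, against 4.08% and 2.26% of all windows. Each match is a run of letters and not a measured binding site, and the Pdha1 window held none of the 5 motifs.

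The low values were not spread evenly over the Notch3-/- mice. Notch3-/- mouse 2 was the lowest of the 7 mice for 7 of the 10 members (Pdk2, Pdha1, Pdhb, Dlat, Pdp1, Mpc1 and Mpc2) and lay below all control mice for 8. Of all genes tested, this mouse was the lowest for 20.7%, the largest share of the 7 mice, and below all control mice for 27.4%. Notch3-/- mouse 1 lay below all control mice for 2 members (Pdhx and Pdp1) and Notch3-/- mouse 3 for 4 (Pdk2, Pdha1, Pdhb and Mpc1), against 22.3% and 21.2% of all genes. Measured from the control mean, the 10 members had a median log2 difference of 0.11, -0.03, -0.02 and 0.01 in control mice 1 to 4, against -0.01, -0.28 and -0.03 in Notch3-/- mice 1 to 3. With Notch3-/- mouse 2 left out, the members had a median log2 fold change of -0.07 with 6 of 10 below 0, and without Notch3-/- mouse 1 it was -0.22 with 9 of 10 below 0. In the latter fit edgeR called 0 members, and 4 of 10 (Pdk2, Pdha1, Pdhb and Mpc1) had an unadjusted p lower than 0.05, against 10.9% of all genes tested. Without Notch3-/- mouse 3 the median was -0.18 with 9 of 10 below 0, and 1 of 10 was at that level, against 16.3%. Control mice 1 and 2 carry labels that start with X and the other 5 mice labels that start with k, and among the k-labelled mice alone the median was -0.15 with 8 of 10 below 0.

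Notch3-/- mouse 2, with the lowest members, also had the lowest level of heart muscle genes and the highest of liver genes, while the medians of the other mice did not keep 1 order across these lists. The 10 genes of a cardiomyocyte list, all of them above 10 CPM in control hearts and with Ttn the most abundant, summed to 31616, 22973, 26577 and 30293 CPM in control mice 1 to 4, against 31213, 20734 and 22348 CPM in Notch3-/- mice 1 to 3. Measured from the control mean, these genes had a median log2 difference of 0.25, -0.29, -0.11 and 0.15 in control mice, against 0.03, -0.41 and -0.33 in Notch3-/- mice, so Notch3-/- mouse 2 was lowest here too. Control mouse 2 and Notch3-/- mouse 3 were also low for these genes. The members' median was -0.03 in both, over members on either side of 0, and in Notch3-/- mouse 3 Pdk2, Pdha1, Pdhb and Mpc1 lay below all control mice. The 10 cardiomyocyte genes all had a log2 fold change below 0, against 50.4% of all genes tested, and the median was -0.24. In edgeR's test 0 were called (0 at an unadjusted p lower than 0.05). Fewer cardiomyocytes in a sample and less of these RNAs per cardiomyocyte cannot be told apart in bulk tissue.

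Among the 18 genes of a hepatocyte list Alb was the most abundant and the 1 gene with a control mean above 10 CPM. The list summed to 52.4, 160, 18.3 and 30.4 CPM in control mice 1 to 4. In Notch3-/- mice 1 to 3 the sums were 6625, 12666 and 154 CPM. Notch3-/- mouse 2 thus had the highest sum, Notch3-/- mouse 1 the next highest, and Notch3-/- mouse 3 was near control mouse 2. Of the 18 genes, 4, 0, 6 and 7 were at 0 counts in control mice 1 to 4, among them Apob, Apoc3, Fgb, Cps1, Tat, Hpd, F2, Cyp3a11, G6pc and Tdo2 in at least 1 mouse, and 0 were at 0 in any Notch3-/- mouse. The list took up at most 1.17% of a mouse's counts. The part of these genes' cells in the values of the members was not tested beyond a fit with the hepatocyte score of each mouse as a covariate, in which the median log2 fold change of the members was 0.0015 with 5 of 10 below 0 and 0 called. Pdk2, Pdha1, Pdhb and Mpc1 stayed below 0 in that fit, at -0.21, -0.16, -0.18 and -0.20, against -0.25, -0.18, -0.22 and -0.23 without the score, and Dlat, Pdhx, Pdp1 and Mpc2 were above 0, at 0.13, 0.16, 0.08 and 0.01. The level of the hepatocyte genes went largely with the genotype, so this fit cannot separate the 2 well. Every member had a larger SE in it, such as 0.22 against 0.11 for Pdk2 and 0.19 against 0.10 for Dlat. In that fit 0 genes were called, and so Notch3 was not called either. Notch3-/- mouse 2 also differed from the other mice in genes of fast skeletal muscle, with 39 counts of Myh4, 26 of Myh1 and 69 of Tnnt3, against at most 1, 2 and 5 in any other mouse, and the part of these in its member values was not tested.

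**Figure D4:**
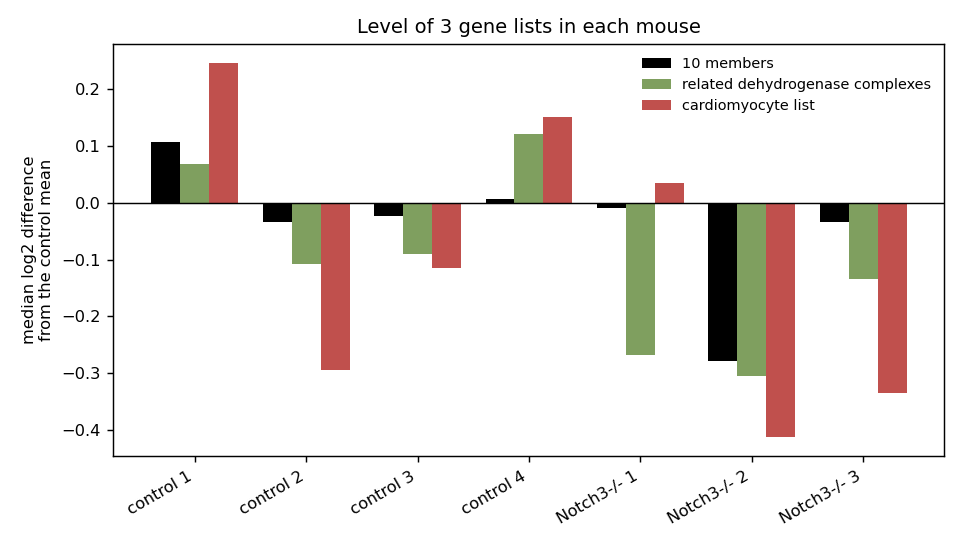
Median log2 difference from the control mean (vertical axis) in each mouse over the 10 members (black), the 8 genes of related dehydrogenase complexes (green) and the 10 genes of the cardiomyocyte list (red). All 3 lists were lowest in Notch3-/- mouse 2, at -0.28, -0.31 and -0.41.

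Depth differed between the groups. The mean log2 library total was 20.17 in control and 20.52 in Notch3-/- mice, a difference of 0.36. Within mice, the slope of log2 CPM on the log2 library total was -0.47 (SE 0.05) for Pdk2, -0.38 (SE 0.05) for Pdha1, -0.47 (SE 0.08) for Pdhb, -0.53 (SE 0.10) for Mpc1 and -0.43 (SE 0.13) for Mpc2. Deeper libraries of a mouse thus gave lower values on average for these 5 genes, but not in every mouse. In control mouse 1, Mpc1 was at 410, 448 and 462 CPM in libraries of 914165, 995348 and 1181948 counts. Dlat (-0.14, SE 0.06), Pdhx (-0.15, SE 0.09) and Pdk1 (0.02, SE 0.18) had smaller slopes, and Pdp1 had a positive one (0.33, SE 0.07). For Pdk3, with few counts, the slope was -0.31 (SE 0.18). The shallowest library, with 464390 counts from control mouse 4, lay apart from the rest in depth. Without it the slopes were -0.51 for Pdk2, -0.32 for Pdha1, -0.65 for Pdhb, -0.71 for Mpc1 and -0.56 for Mpc2. They were -0.08 for Dlat, -0.23 for Pdhx, 0.30 for Pdk1, 0.25 for Pdp1 and -0.21 for Pdk3. The slope of Pdk1 was the one that moved most (SE 0.23). The highest counts per exon base of any library were 0.668 for Pdha1 and 0.589 for Pdk2, and the highest of any gene with 200 or more exon bases was 1.97.

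With log2 depth as a covariate in limma-voom on the 21 libraries, an alternative chosen after seeing the data, the log2 fold changes of Pdk2, Pdha1, Pdhb and Mpc1 were -0.09, -0.07, -0.08 and -0.05, against -0.26, -0.20, -0.22 and -0.21 in the same fit without depth. For Pdp1 they were -0.51 with depth (FDR 0.129 from limma-voom) and -0.44 without (FDR 0.159 from limma-voom). The part of depth in the values of single mice was not tested, since the fit gives 1 coefficient for all 3 Notch3-/- mice. Without the shallowest library, also an alternative chosen after seeing the data, the values with depth were -0.09, -0.07, -0.06 and -0.03 for Pdk2, Pdha1, Pdhb and Mpc1 and -0.50 for Pdp1. Thinning the summed counts of each mouse to the smallest total left the median log2 fold change of the members at -0.11. Random thinning keeps the expected CPM of a gene, so it cannot show the part of the slopes on library depth.

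**Figure D5:**
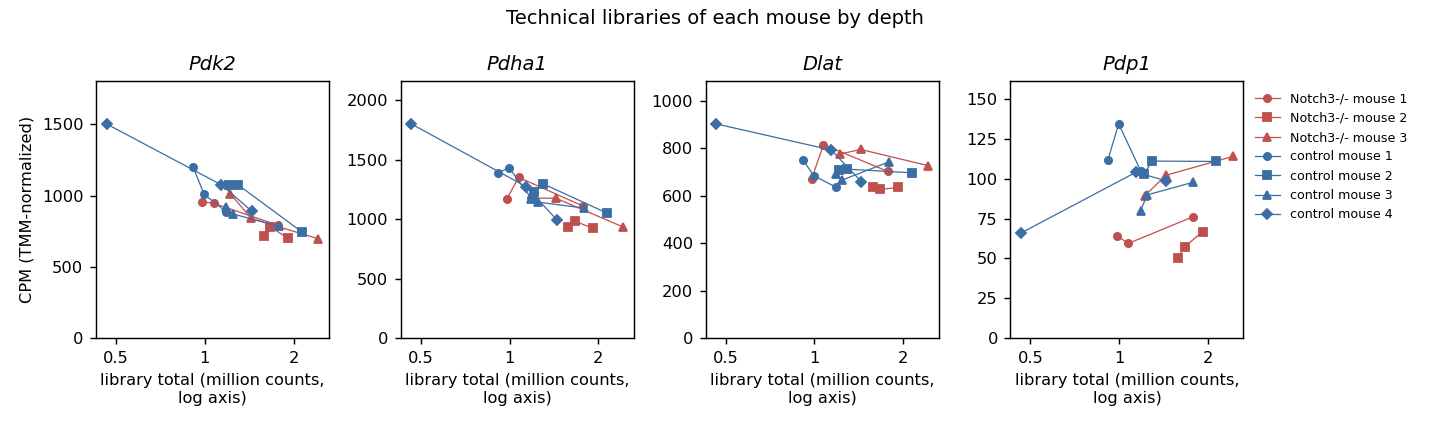
CPM (vertical axis, from 0) of Pdk2, Pdha1, Dlat and Pdp1 in each of the 21 technical libraries against the total count of the library (horizontal log axis), with a line joining the 3 libraries of a mouse and control mice in blue and Notch3-/- mice in red. Within mice, Pdk2 and Pdha1 were on average lower in deeper libraries (slopes of -0.47 and -0.38 on log2 scales), and Dlat was nearly level (-0.14). Pdp1 was at most 76.1 CPM in Notch3-/- mice 1 and 2 and at 65.9 CPM in the shallowest library, of control mouse 4.

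Single libraries of a mouse also varied. Their SD of log2 CPM within mice was 0.32 for Pdk1, 0.27 for Pdhb and 0.30 for Mpc1, where the means of 3 libraries had SDs of 0.13, 0.05 and 0.15 between the control mice, and for Pdp1 the SDs were 0.20 and 0.20. A mean of 3 libraries varies less than a single one, so these SDs are not on the same footing.

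Pdha1 and Pdk3 lie on the X chromosome, and the mice were not alike in sex-linked genes. Xist was at 238 CPM in control mouse 2 and 472 CPM in Notch3-/- mouse 1, and at 0.471 to 8.23 CPM in the other 5 mice. The Y-linked genes Ddx3y, Eif2s3y, Kdm5d and Uty were at most 7.17 CPM in those 2 mice and at least 34.1 CPM in the others. Pdha1 had 1160 and 1188 CPM in the 2 mice with high Xist, within the range of the others, and Pdk3 5.06 and 6.01 CPM. Without these 2 mice (an alternative chosen after seeing the data) the log2 fold change of Pdha1 was -0.28 and the median over the members was -0.27, with 0 members called by edgeR (0 genes in all) and 4 of 10 at an unadjusted p lower than 0.05, against 10.1% of all genes tested.

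The rest of the complex and its regulators also had no gene called, but its order over the mice was another, since its median level lay -0.30, -0.26 and 0.26 log2 units from the control mean for Notch3-/- mice 1 to 3. Dld, which encodes the third enzyme of the complex, had 527 ± 28.4 CPM (SD, n = 4) in control mice and 509, 455 and 517 CPM in Notch3-/- mice 1 to 3 (log2 fold change -0.10, SE 0.10). Pdp2, the other phosphatase gene, had a log2 fold change of -0.17 (SE 0.19), and Pdpr, which encodes the phosphatase's regulatory subunit, of 0.00019 (SE 0.17). Pdp2 resembled Pdp1 in that Notch3-/- mice 1 and 2, at 49.2 and 54.1 CPM, lay below the control range of 55.8 to 79.0 CPM and Notch3-/- mouse 3, at 78.1 CPM, within it. Notch3-/- mice 1 and 2 below all control mice, with mouse 3 not below them, were also found for Pdk4, Pdhx, Lias, Bckdhb and Me3 and for 6.78% of all genes tested, a pattern noticed after the values were seen. Pdha2, the testis form of the alpha subunit, had 0 counts in all mice, and Mpc1l was not among the genes of the table. Of the 4 genes tested 3 had a log2 fold change below 0, against 50.4% of all genes tested. In edgeR's test 0 were called, with 0 at an unadjusted p lower than 0.05.

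The related complexes that oxidize 2-oxoglutarate and branched-chain keto acids, which share the chemistry and the third enzyme of the pyruvate dehydrogenase complex, were followed with 8 genes. All 8 had a log2 fold change below 0, against 50.4% of all genes tested, and the median was -0.21. In edgeR's test 0 were called, and 1 was lower at an unadjusted p lower than 0.05, against 3.05% of all genes tested. Bckdha had 577, 524, 521 and 628 CPM in control mice, against 456, 406 and 475 CPM in Notch3-/- mice, with a log2 fold change of -0.34 (SE 0.11, FDR 0.322 in edgeR's test), and Ogdhl had one of -0.33 (SE 0.20). The smallest differences were those of Dbt (-0.07, SE 0.17) and Dlst (-0.09, SE 0.10). In Bckdha and in Bckdk, which encodes the kinase of the branched-chain complex, every Notch3-/- mouse lay below every control mouse, 2 of 8 genes against 3.96% of all genes. Over all 8 genes the median log2 distance from the control mean came to -0.27, -0.31 and -0.13 in Notch3-/- mice 1 to 3. Here Notch3-/- mouse 1 was thus low as well, unlike for the 10 members (-0.01).

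The enzymes of the complex need lipoate and thiamine pyrophosphate. Of 6 genes for these cofactors 5 were tested, 3 with a log2 fold change above and 2 below 0. This tally leaves out 1 gene that was taken off the list after the values were seen. Slc19a2, a thiamine transporter gene, had 12.2, 16.9, 17.4 and 13.7 CPM in control mice 1 to 4, against 39.6, 98.2 and 23.8 CPM in Notch3-/- mice 1 to 3. All Notch3-/- mice lay above all control mice, and their order among themselves was that of the hepatocyte sums (log2 fold change 1.83, SE 0.41, FDR 0.164 in edgeR's test). Lipt1, which transfers lipoate to the second enzymes, had a log2 fold change of 0.44 (SE 0.28), and the genes below 0 were Lias, the lipoate synthase gene (-0.21, SE 0.13), and Lipt2 (-0.12, SE 0.21). Slc19a3 had at most 13 counts in a mouse and was not tested.

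Of 15 genes that supply or use pyruvate 14 were tested, 7 with a log2 fold change above and 7 below 0. In edgeR's test 0 were called. At an unadjusted p lower than 0.05 in that test, 3 were higher, against 7.34% of all genes tested, and 1 was lower, against 3.05%. Pcx, which encodes pyruvate carboxylase, the other mitochondrial fate of pyruvate, had 105 to 120.2 CPM in control mice, against 154, 498 and 132 CPM in Notch3-/- mice 1 to 3 (log2 fold change 1.24, SE 0.39, FDR 0.297 in edgeR's test). Gpt2, an alanine aminotransferase gene, had 177, 367 and 94.7 CPM in Notch3-/- mice 1 to 3 against 82.6 to 129 CPM in control mice (log2 fold change 1.09, SE 0.37). Me1, a malic enzyme gene, had 178, 524 and 168 CPM against 136 to 174 CPM (log2 fold change 0.85, SE 0.35). In all 3 genes the highest mouse was Notch3-/- mouse 2, which also had the highest hepatocyte sum and the lowest levels of most members. The lowest log2 fold changes were those of Ldhb, a lactate dehydrogenase gene of the heart (-0.32, SE 0.13), and Me3 (-0.26, SE 0.15). Pklr, the pyruvate kinase gene of liver, was not tested, with at most 1 count in a control mouse and 91, 910.0 and 2 counts in Notch3-/- mice 1 to 3.

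The mean of the standardized log2 CPM of Pdha1, Pdhb, Dlat and Pdhx served to find genes with a like pattern over the 7 mice. It was 0.20, 0.12, 0.10 and 0.94 in control mice 1 to 4, against 0.13, -1.60 and 0.11 in Notch3-/- mice 1 to 3, so it mainly set Notch3-/- mouse 2 and control mouse 4 apart from the rest. The 5 most alike genes were Exosc9, Kcnk3, Stub1, Nsfl1c and Ubac1, with Pearson's r of 0.985 to 0.991 (n = 7, no test), and 161 of 14320 genes compared (1.12%) had an r over 0.9. Among the regulators r was 0.82 for Pdk2, 0.69 for Pdp1, 0.57 for Mpc1 and 0.30 for Mpc2, against 0.11 for Pdk1 and -0.08 for Pdk3.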

How the data were processed

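RNA of 7 left ventricles was sequenced by the authors in 3 technical libraries per mouse, and the deposited values are counts, whole numbers of reads per gene without normalization. The submitters' processing notes name CASAVA and the build mm10. The aligner, the counting program, its use of strand and the handling of duplicate reads are not given in the sources used here. The reads were amplified by PCR without molecular identifiers, so precision from depth covers counting error only. Of 46609 lines, 92 were ERCC spike-in sequences with 34 counts in all, which were left out. Genes were named through their Ensembl identifiers, of which 46005 of 46517 were found in GENCODE vM21.

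Counts were summed per mouse and fitted with edgeR 4.0.16 in R 4.3.3 (filterByExpr, TMM factors, quasi-likelihood F-test, genotype as the only term), with Benjamini-Hochberg adjustment over all genes tested. A call needed an FDR under 0.05 together with a fold change of 1.5 or more, the study's thresholds. Log2 CPM used a prior count of 2. The fits were tested on simulated counts. DESeq2 1.42.0, the study's tool, and limma 3.58.1 (limma-voom on the 21 libraries with the mouse as a random effect) were alternatives, as were other scaling and filters, each mouse left out, the k-labelled mice alone, a hepatocyte score, thinned counts and single technical libraries. Depth as a covariate, the shallowest library left out, the mice with over 200 Xist CPM left out and Notch3-/- mouse 3 alone were chosen after seeing the data. Members and gene lists were chosen with earlier results of these data known. Named in the text are the members, Notch3, the rest of the complex, sex-linked genes and the 5 genes most alike to the subunits. From each other pathway list, genes with an unadjusted p lower than 0.05 or the 2 highest and 2 lowest log2 fold changes are named. Bckdk is also named because its groups did not overlap, and Bckdhb for a pattern over the mice. Slc19a3 and Pklr are named as not tested. Cell type lists are given by their sums, and some of their genes singly, many of them picked after their values were seen. Genes sharing exon sequence with a member and the pseudogene Mpc1-ps are also given. After the values were seen, 1 gene was taken off the list of cofactor genes and is not reported here. No column of the table was left out.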

Additional observations from a re-analysis of the deposited data

How the results depend on the processing

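No member was called in 24 of 25 alternative fits, and 1 (Pdp1) was called without Notch3-/- mouse 3, so that with a mouse left out 0 to 1 members and 1 to 936 genes were called, and the median log2 fold change of the members ran from -0.22 to -0.067. The number of genes called was 601 with DESeq2, 639 without a filter, 65 and 62 in limma-voom on 21 libraries without and with the technical number as a replicate block, 48, 39 and 77 with technical library 1, 2 or 3 alone, and 0 with the k-labelled mice or the hepatocyte score. It was 11 with depth as a covariate, 47 and 5 without the shallowest library (no covariate and depth) and 0 without the mice over 200 Xist CPM, which, like the fit of Notch3-/- mouse 3 alone, were chosen after seeing the data. Without any fold threshold 1 gene and 0 members passed. The members' median was 0.0015 with the hepatocyte score, -0.20 in limma-voom both without and with the replicate block, and -0.21 with technical library 3. In the added fits it was -0.050 with depth, with or without the shallowest library, -0.27 without the mice over 200 Xist CPM and -0.041 for Notch3-/- mouse 3 against the controls, a lone mouse assumed to vary like them.

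Of 241 log2 fold changes of members under alternatives 31 had the opposite sign, none of them called, and Pdk2, Pdha1, Pdhb and Mpc1 had none. With a mouse left out Pdk1 ran from -0.036 to 0.11, Pdk3 from -0.063 to 0.39, Dlat from -0.063 to 0.064 and Mpc2 from -0.18 to 0.035. With the hepatocyte score the log2 fold change was -0.0092 for Pdk3, 0.13 for Dlat, 0.16 for Pdhx, 0.083 for Pdp1 and 0.012 for Mpc2. That score went largely with the genotype, and the SEs were larger in this fit. With technical library 1 alone it was -0.34 for Pdk1, 0.029 for Pdhx and 0.011 for Mpc2, with library 2 alone 0.011 for Dlat, and with library 3 alone 0.021 for Dlat and 0.086 for Mpc2. With depth as a covariate it was -0.020 for Pdk1, 0.022 for Dlat and 0.099 for Mpc2, and with the shallowest library also left out -0.050 for Pdk1, 0.015 for Dlat and 0.12 for Mpc2. Without that library and without the covariate it was 0.0052 for Dlat, without the mice over 200 Xist CPM -0.0033 for Pdk3, and for Notch3-/- mouse 3 alone 0.088 for Dlat, 0.10 for Pdhx and 0.027 for Pdp1. The causes were not tested. In fits on single libraries, on 20 or 21 libraries and with at least 10 counts in every mouse Pdk3 was not tested.

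The replicate block changed no call of a member, and the technical numbers did not pair the libraries. Deviations of libraries with the same number from different mice had a mean correlation of -0.02 (63 pairs, 4 over 0.1), and those with different numbers 0.0093 (126 pairs). Pdk3 had 9 to 26 counts per mouse, and counting error and spread between mice were not separated for it.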

Other observations

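The other marker lists were summed in the same way, and the single genes given with a log2 fold change were picked after their values were seen. Pericyte genes (4, led by Rgs5) had 1103 to 1222 CPM in control mice and 1075, 902 and 964 CPM in Notch3-/- mice 1 to 3, and Rgs5 (log2 fold change -0.34, SE 0.10, FDR 0.249 in edgeR's test) was below every control mouse in every Notch3-/- mouse. Endothelial genes (5, led by Kdr) had 710 to 1120 and 1006, 1053 and 1011 CPM, fibroblast genes (4, led by Dcn) 648 to 854 and 677, 672 and 786 CPM, and macrophage genes (4, led by Csf1r) 190 to 206 and 222, 209 and 260 CPM. Among the fibroblast genes Col1a1 lay above every control mouse in every Notch3-/- mouse (log2 fold change 0.62, SE 0.16, FDR 0.200 in edgeR's test) and Dcn below (-0.26, SE 0.11, FDR 0.476 in edgeR's test). Vascular smooth muscle genes (4, led by Acta2) had 112 to 236 and 280, 59.3 and 130 CPM, with Cnn1 at 0 in Notch3-/- mouse 2. This sum is mostly Acta2 (log2 fold change 0.15), and of the 3 genes tested Myh11 (-2.49, SE 0.45, FDR 0.118 in edgeR's test) and Tagln (-0.93, SE 0.35, FDR 0.396 in edgeR's test) had an unadjusted p lower than 0.05, every Notch3-/- mouse lying below every control mouse for Myh11. Over the 3 genes the median level lay -1.36, -1.71 and -1.07 log2 units from the control mean for Notch3-/- mice 1 to 3, and 0 were called. Erythroid genes (5, led by Hbb-bs) had 351 to 536 and 303, 475 and 206 CPM, and all 5 had a log2 fold change below 0, with an unadjusted p lower than 0.05 for Hba-a1 (-0.60, SE 0.23) and Hbb-bs (-0.52, SE 0.21), but 0 called in edgeR's test. Atrial genes (4, led by Nppa) had 35.8 to 166 and 48.6, 195 and 77.7 CPM, with Sln at 0 in Notch3-/- mouse 3. Skeletal muscle genes (5, led by Acta1, which the heart also expresses) had 161 to 855 and 390, 437 and 782 CPM, nearly all of it Acta1. Without Acta1 the list was highest in Notch3-/- mouse 2, where Myh4, Myh1, Tnnt3 and Tnni2 had 8.20, 5.47, 14.5 and 5.05 CPM, against at most 3.37 CPM for any of them in any other mouse, and Myh4, Myh1 and Tnni2 were at 0 in at least 1 mouse. Adipocyte genes (3, led by Cfd) had at most 5.34 CPM in any mouse, and Adipoq, Plin1 and Cfd were each at 0 in some.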
